A study of Gallus gallus with 24 samples.

Results

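The comparison described here is the difference between sinoatrial node (SAN) and atria in the response to CN03, an activator of the small GTPase RhoA. It rests on 16 of the 24 libraries of the series, the cultured ones: SAN with vehicle, SAN with CN03, atria with vehicle and atria with CN03, with 4 libraries each. For each of 12422 genes with a symbol, the change with CN03 in atria was subtracted from the change with CN03 in SAN, and the genes were then sorted into those that responded in opposite directions, in one tissue, or in both tissues to unequal extents. The embryos were chick, at HH stage 30, which is embryonic day 6. Each library was a pool of 5 tissue preparations, cultured for 14 h in serum-containing medium with 0.25 ug/ml CN03 or with water as vehicle. The other 8 libraries, 4 each of SAN and atria, came from freshly isolated tissue (t0) and entered the fit for its estimate of spread. The tissue was microdissected and not sorted, so each pool holds the cell types of its region, and the labels name no genetic change. What was deposited for each gene and library is a normalized log2 expression value.

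RhoA, when bound to GTP, engages kinases and formins that assemble actin filaments and raise myosin contractility, and the fall in free actin monomer lets the coactivator MRTF enter the nucleus and act with SRF. CN03 is a bacterial-toxin-derived protein that keeps RhoA active by modifying the residue needed for GTP hydrolysis. The SAN is the pacemaker of the heart, and its cells are specified by transcription factors such as SHOX2, ISL1 and TBX3, whereas atrial working myocytes express genes such as NPPA and BMP10 and contract in response to the impulse.

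The labels matched the tissues. In fresh tissue, SHOX2 lay between 6.77 and 8.26 in the SAN libraries and between 0.45 and 2.06 in the atrial libraries, and NPPA lay between 5.22 and 6.20 in SAN and between 10.11 and 10.74 in atria, without overlap. Across genes, r between replicate libraries lay from 0.977 to 0.992. The reads behind a value are unknown, so precision rests on the spread between the 4 libraries of a group. Back-transformed and summed over the table, the 4 libraries of atria with CN03 reached 1.20 to 1.28 times the constant sum that CPM values have, and the other libraries 0.860 to 1.04 times, and the part of this in the results was not tested except through the other scalings given beside them.

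CN03 changed most of the genes in both tissues. At an adjusted p under 0.05 (limma, Benjamini-Hochberg adjustment over 12422 genes), 71.2% of the genes changed in SAN (33.4% rose and 37.8% fell) and 72.5% in atria (35.7% rose and 36.8% fell). The response itself differed between the tissues for 3371 genes, or 27.1% of those tested. It was higher in SAN than in atria for 1457 (11.7%) and lower in SAN for 1914 (15.4%). Of the differing genes, 43.2% were thus higher in SAN, a split that was near even under other scalings (53.7% with quantile normalization and 51.1% with median centring). The median difference over all genes was -0.04 on the log2 scale, and moved by 0.083 and 0.047 under those scalings. Differences beyond 1 on the log2 scale were found for 1031 genes, of which 787 were lower and 244 higher in SAN.

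The genes that differed fell into 4 kinds of response. Opposite directions were found for 273 genes: 158 (1.27% of those tested) fell in SAN and rose in atria, and 115 (0.926%) rose in SAN and fell in atria, each with an adjusted p under 0.05 in both tissues and in the difference. Most of these changes were small, since the smaller of a gene's changes had a median of 0.36 on the log2 scale, both changes passed 0.5 in 81 genes, and both passed 1 in 7. The libraries with CN03 and with vehicle did not overlap in either tissue for 143 of the 273, beside 62.2% of all genes without overlap in SAN and 66.5% in atria. The shares over all genes are each for a single tissue. The share of all genes without overlap in both tissues at once is not given here, so the 143 cannot be set against them directly. A response in one tissue was called where the change passed 1 on the log2 scale there, while the 95% confidence interval in the other tissue lay inside -1 to 1 and its adjusted p was 0.05 or more. Changes beyond 1 with an adjusted p under 0.05 were found for 27.4% of all genes in SAN and 29.4% in atria. By the one-tissue rule, 17 genes (0.137%) rose and 107 (0.861%) fell in SAN alone, and 130 (1.05%) rose and 58 (0.467%) fell in atria alone. The most frequent kind was an unequal change in the same direction, in 1698 genes. Of these, 648 rose more in atria (5.22%), 471 fell more in atria (3.79%), 263 rose more in SAN (2.12%) and 316 fell more in SAN (2.54%). The remaining 1088 genes met none of these criteria, mostly because they were called in SAN alone (495) or in atria alone (583) without passing the fold change or interval limit.

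**Figure D1:**
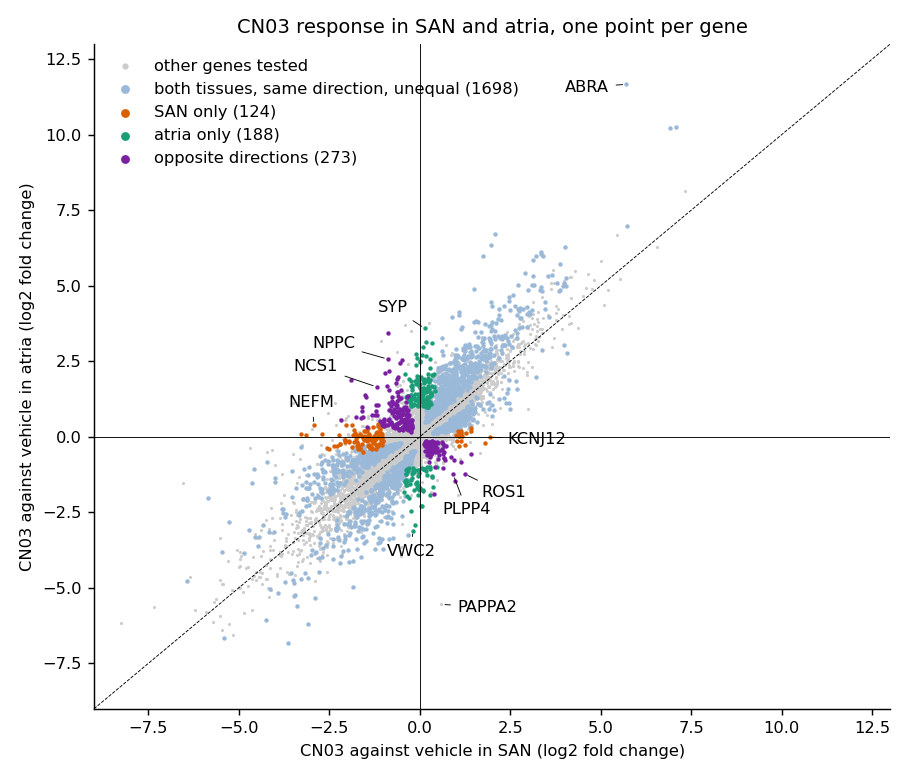
Log2 fold change with CN03 against vehicle in SAN (x axis) and in atria (y axis), a point per gene, coloured by the kind of response; the dashed line marks equal responses. The 273 genes with opposite responses fill the upper left and lower right quadrants near the origin, and the 124 SAN-only and 188 atria-only genes lie along the axes. Of the 1698 genes that changed unequally in the same direction, 1119 changed more in atria, above the line for rises and below it for falls.

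The criteria of each kind of response include the called difference, so no more genes could meet them all again under another scaling than kept the difference. The cause of the losses with quantile normalization was not tested. With quantile normalization, 90 of the 158 genes that fell in SAN and rose in atria met all criteria again, as did 62 of the 115 of the other direction, while the difference itself was called in the same direction for 156 and 115 of them. Among the one-tissue genes, 12 of 17 that rose in SAN, 41 of 107 that fell in SAN, 62 of 130 that rose in atria and 29 of 58 that fell in atria met the criteria again, and the difference was called in the same direction for 17, 88, 114 and 56. Among same-direction genes, 394 of 648 that rose more in atria and 389 of 471 that fell more there met the criteria again with quantile normalization. So did 179 of 263 that rose more in SAN and 214 of 316 that fell more there. The difference was called in the same direction for 466, 456, 252 and 253 of them. With median centring, 136 of the 158 and 114 of the 115 opposite genes met all criteria again.

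The levels of the sorted genes were then read in fresh tissue, whose libraries had entered the sorting through the shared estimate of spread. Over all genes, 18.7% were higher in fresh SAN than in fresh atria and 17.1% were lower. Among the genes that fell in SAN and rose in atria with CN03, 47.5% were higher in fresh SAN and 12.0% were lower. For the genes that rose in SAN and fell in atria, 7.83% were higher and 40.9% were lower. Of the genes that fell in SAN alone, 52.3% were higher in fresh SAN, and of those that rose in atria alone, 46.2%. The genes that fell in SAN alone had a median log2 level over all libraries of 2.24, beside 4.69 for all genes. A gene with low expression in atria has little room to fall there, and the part of this in the 52.3% was not tested. Of the genes that fell in atria alone, 39.7% were lower in fresh SAN. In a setting added after the data were seen, with genes sorted on the 16 cultured libraries alone and fresh tissue fitted on its 8 libraries alone, 45.5% of 156 genes that fell in SAN and rose in atria were higher in fresh SAN, 37.9% of 103 with the reverse response were lower, and 51.9% of 106 that fell in SAN alone were higher, beside 17.9% higher and 16.4% lower over all genes. In the cultured libraries themselves, the median gap between SAN and atria of the genes that fell in SAN and rose in atria went from 0.64 with vehicle to -0.43 with CN03, and that of the other opposite genes from -0.36 to 0.30. The gap in fresh tissue had a median of 0.24 and -0.13. The gaps with vehicle and with CN03 follow in part from the sorting and are given as a description.

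**Figure D2:**
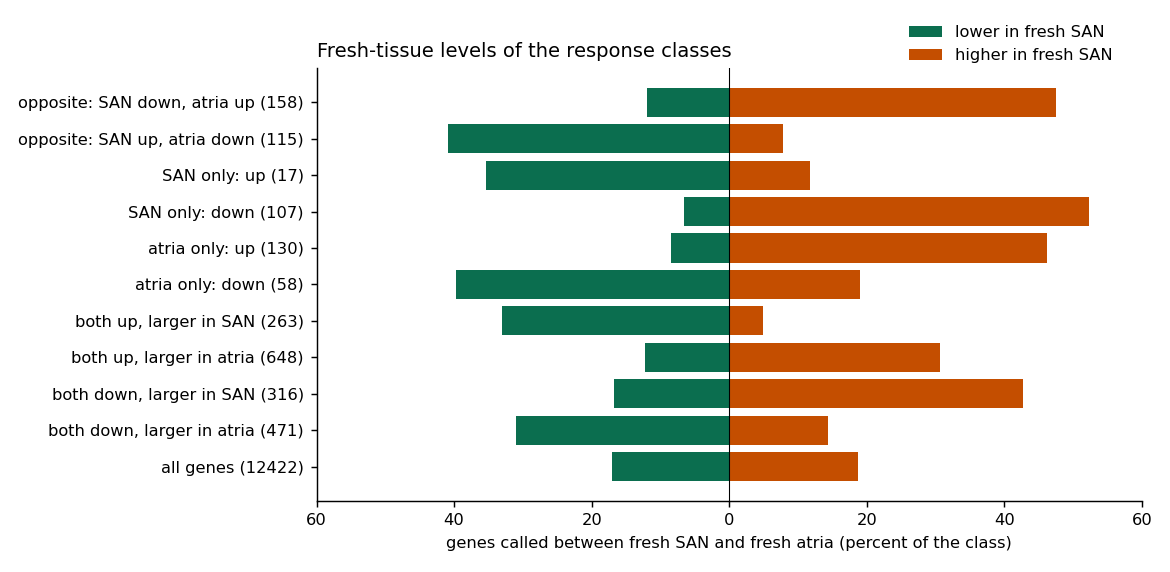
Share of the genes of each kind of response (y axis, number of genes in parentheses) that were called higher (orange, right) or lower (green, left) in fresh SAN than in fresh atria (x axis, percent of the genes of that kind). The share called higher in fresh SAN was 47.5%, 52.3% and 46.2% for the genes that fell in SAN and rose in atria, fell in SAN alone and rose in atria alone, beside 18.7% of all genes tested.

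The opposite genes with the largest changes that fell in SAN and rose in atria encode calcium-binding and calcium-transporting proteins, a natriuretic peptide, a lipid enzyme and a GTPase-activating protein. All genes named by size, here and below, were picked among those whose CN03 and vehicle libraries did not overlap where they responded. Their separation there follows from this choice and is given as a description. NCS1 (chromosome 17, 6469538 to 6482183, GRCg7b) encodes neuronal calcium sensor 1, an EF-hand protein of excitable cells. Its log2 expression in SAN was 7.74, 7.73, 7.98 and 8.15 with vehicle and 6.87, 6.81, 6.62 and 6.52 with CN03. In atria it was 2.78, 3.27, 3.74 and 3.44 with vehicle and 4.90, 4.95, 5.10 and 4.89 with CN03. The groups did not overlap in either tissue, all SAN libraries with CN03 were lower than all with vehicle, and all atrial libraries with CN03 were higher. NCS1 fell by 1.19 in SAN (SE 0.155, adjusted p = 3.54e-07) and rose by 1.65 in atria (SE 0.155, adjusted p = 1.47e-09), a difference of -2.84 (SE 0.219, adjusted p = 8.11e-09). NCS1 was also 3.85 higher in fresh SAN than in fresh atria on the log2 scale (adjusted p = 4.55e-14), so its level in SAN stayed above that in atria under every condition.

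NPPC (chromosome 9, 15088188 to 15092117) encodes the precursor of C-type natriuretic peptide, a signal between endothelial and other cardiac cells. In SAN its values were 3.47, 4.21, 3.34 and 2.67 with vehicle and 2.55, 2.52, 2.61 and 2.48 with CN03. In atria they were 2.51, 2.34, 2.68 and 2.32 with vehicle and 5.59, 4.64, 4.89 and 5.03 with CN03. The atrial groups lay far apart, while the SAN groups were separated by a narrow gap between 2.61 and 2.67. The change was -0.88 in SAN (adjusted p = 0.00145) and 2.57 in atria (adjusted p = 5.78e-10), and the difference -3.46 (SE 0.323, adjusted p = 9.67e-08). With quantile normalization, the fall in SAN was -0.52 and missed the threshold (adjusted p = 0.0527).

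ENPP2 (chromosome 2, 135529588 to 135599161) encodes autotaxin, the secreted enzyme that makes lysophosphatidic acid, a lipid whose receptors couple to RhoA. In SAN its values were 6.47, 6.47, 6.55 and 6.20 with vehicle and 5.28, 4.36, 5.07 and 4.55 with CN03. In atria they were 4.95, 4.92, 4.32 and 4.44 and 5.74, 5.34, 5.28 and 5.70. Neither pair of groups overlapped, and the order of the tissues turned from SAN above atria with vehicle to atria at or above SAN with CN03. ENPP2 changed by -1.61 in SAN (adjusted p = 2.56e-06) and by 0.86 in atria (adjusted p = 0.00279), a difference of -2.46 (SE 0.339, adjusted p = 1.33e-05).

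ARHGAP20 (chromosome 1, 179364537 to 179424524) encodes a GTPase-activating protein. Its values in SAN were 1.95, 2.22, 2.57 and 2.13 with vehicle and 0.65, 1.46, 1.57 and 1.79 with CN03, and in atria 2.03, 1.78, 1.55 and 1.41 with vehicle and 3.25, 2.23, 3.12 and 2.71 with CN03. Groups were separate in both tissues. ARHGAP20 fell in SAN (-0.85, adjusted p = 0.00528) and rose in atria (1.13, adjusted p = 0.000415), a difference of -1.98 (SE 0.365, adjusted p = 0.000296). The change in SAN was -0.29 with quantile normalization (adjusted p = 0.31).

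Low expression marked the other named members of this direction. ATP2C2 (chromosome 11, 16387680 to 16411294), a calcium and manganese pump of the secretory pathway, had SAN values of 2.18, 1.08, 0.74 and 0.85 with vehicle and -0.98, 0.14, 0.21 and 0.69 with CN03. In atria, ATP2C2 was at 0.38, -0.13, 0.76 and 1.01 with vehicle and at 1.66, 1.10, 1.41 and 2.00 with CN03. Groups were separate in both tissues, by a narrow margin in SAN. Its changes were -1.20 in SAN and 1.04 in atria (adjusted p = 0.00395 and 0.0107), the difference was -2.23 (adjusted p = 0.00164), and with quantile normalization the SAN change was -0.52 (adjusted p = 0.188). OCM3 (chromosome 14, 1051828 to 1056726), an oncomodulin, is one of several closely related parvalbumin-family genes between which reads may have been divided, so its values are uncertain. OCM3 ranged from 0.32 to 1.50 with vehicle and -1.20 to -0.35 with CN03 in SAN. Its atrial ranges were 1.82 to 2.75 and 3.24 to 3.57, without overlap in either tissue. The changes of OCM3 were -1.59 and 0.99 in SAN and atria (adjusted p = 8.65e-06 and 0.00155), and the difference was -2.58 (adjusted p = 1.91e-05). Unlike the other genes of this direction named above, OCM3 was lower in fresh SAN than in fresh atria (-1.35, adjusted p = 0.000239), and ATP2C2 did not pass the test there (-0.15, adjusted p = 0.78).

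Among genes that rose in SAN and fell in atria, the Notch ligand JAG1 (chromosome 3, 13191920 to 13227987) had the highest expression of the 6 named by size. JAG1 values in SAN were 6.37, 6.33, 6.40 and 6.89 with vehicle and 7.60, 7.65, 7.74 and 7.53 with CN03. In atria they were 7.62, 7.46, 7.69 and 7.41 with vehicle and 6.67, 6.80, 6.63 and 6.80 with CN03. With CN03 the tissues exchanged places, the SAN libraries reaching the level of vehicle-treated atria and the atrial libraries that of vehicle-treated SAN. JAG1 rose by 1.13 in SAN (SE 0.114, adjusted p = 5.81e-09) and fell by 0.82 in atria (SE 0.114, adjusted p = 7.81e-07), a difference of 1.95 (SE 0.161, adjusted p = 2.03e-08).

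RBM15 (chromosome 26, 1436085 to 1443905), an RNA-binding protein that recruits the enzyme complex for RNA adenosine methylation, changed by nearly equal amounts in the opposite sense. SAN libraries of RBM15 had 4.38, 4.62, 4.46 and 4.77 with vehicle and 5.26, 5.23, 5.30 and 5.14 with CN03, and atrial libraries had 5.63, 5.73, 5.46 and 5.67 with vehicle and 4.84, 5.09, 4.96 and 4.84 with CN03. No groups overlapped within a tissue. The changes were 0.68 in SAN and -0.69 in atria (adjusted p = 3.06e-07 and 1.95e-07), with a difference of 1.36 (SE 0.123, adjusted p = 5.76e-08), and fresh SAN and atria differed by -0.03 (adjusted p = 0.842). Against fresh tissue in place of vehicle, RBM15 changed by 0.38 in SAN and 0.06 in atria. That difference of 0.33 was not past the threshold (adjusted p = 0.0554).

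ROS1 (chromosome 3, 63161245 to 63244863), a receptor tyrosine kinase, had SAN values of -0.19, -0.13, 0.38 and 0.73 with vehicle and 2.20, 1.35, 1.29 and 0.94 with CN03. Its atrial values were -0.04, 0.44, 0.22 and 0.28 with vehicle and -0.78, -1.21, -1.38 and -0.65 with CN03. Both pairs of groups were separate. ROS1 changed by 1.24 in SAN and -1.23 in atria (adjusted p = 0.00197 and 0.00214), a difference of 2.47 (adjusted p = 0.000423), and with quantile normalization the atrial change was -0.75 (adjusted p = 0.0638). PLPP4 (chromosome 6, 31294961 to 31357691), a phospholipid phosphatase, had SAN values of 3.21, 3.13, 2.96 and 2.85 with vehicle and 4.09, 3.35, 4.48 and 3.91 with CN03. In atria PLPP4 was at 4.35, 4.24, 4.65 and 4.76 with vehicle and 3.01, 3.17, 3.37 and 3.47 with CN03. The groups of PLPP4 did not overlap in either tissue. Its changes were 0.92 and -1.24 in SAN and atria (adjusted p = 0.000273 and 6.95e-06), and the difference was 2.17 (adjusted p = 7.83e-06).

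CAMKK1 (chromosome 19, 3812430 to 3898645), a kinase that activates calmodulin-dependent kinases, ranged from 2.16 to 2.69 with vehicle and 2.92 to 3.29 with CN03 in SAN. The atrial ranges of CAMKK1 were 3.12 to 3.64 and 2.33 to 2.95. Its changes were 0.69 and -0.77 (adjusted p = 0.000566 and 0.000181) and the difference 1.45 (adjusted p = 5.79e-05). TVP23A (chromosome 14, 9117583 to 9127566), a Golgi membrane protein, ranged from 0.54 to 1.36 with vehicle and 1.37 to 2.67 with CN03 in SAN, where the groups nearly touched. Its atrial ranges were 1.40 to 2.12 and 0.80 to 1.25. Changes of TVP23A were 0.96 and -0.76 (adjusted p = 0.00107 and 0.00698) and the difference 1.71 (adjusted p = 0.000593), and the atrial change with quantile normalization was -0.41 (adjusted p = 0.113). Against fresh tissue, the differences of CAMKK1 and TVP23A were 0.27 and 0.74 and missed the threshold (adjusted p = 0.423 and 0.115). Those of ROS1 and PLPP4 were 1.72 and 1.40 (adjusted p = 0.0101 and 0.00094).

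**Figure D3:**
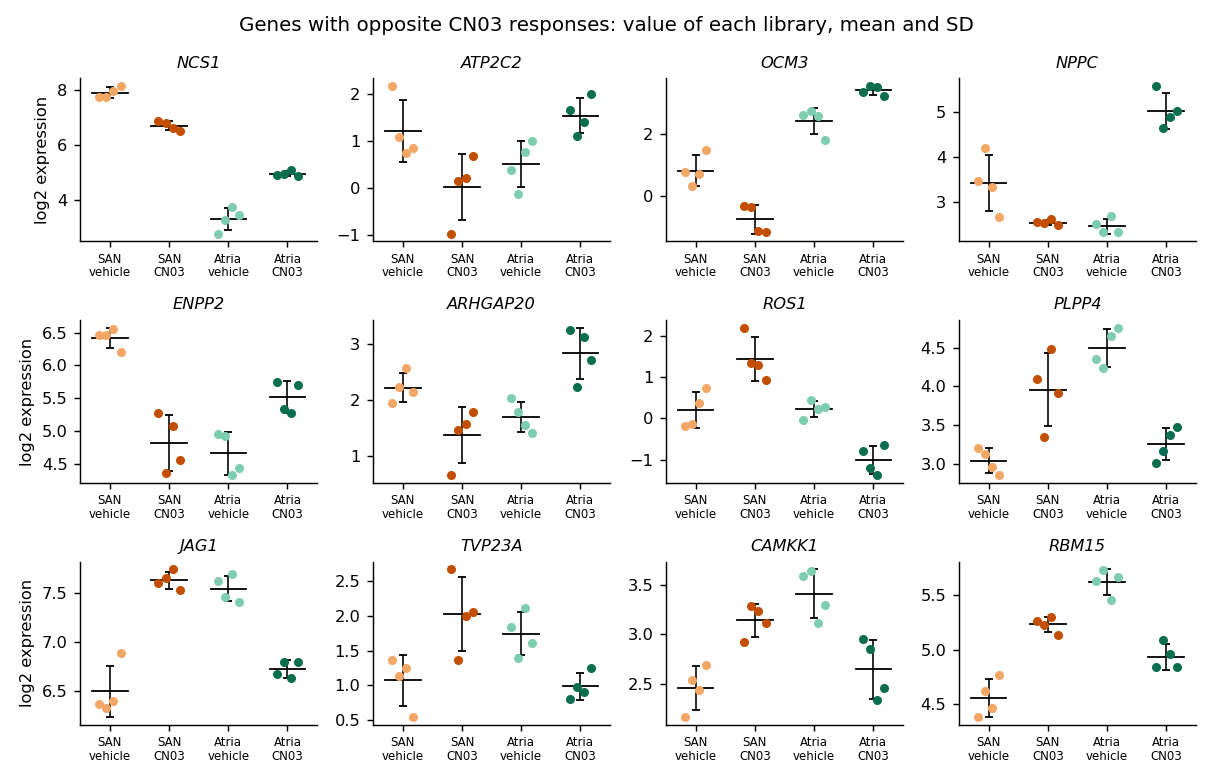
Log2 expression (y axis) of the 12 named genes with opposite responses in each of the 4 libraries of SAN and atria with vehicle and with CN03 (x axis); points are libraries, the line is the mean and the bar the SD. The genes were chosen for opposite changes without overlap, so in every panel the CN03 points lie on the other side of the vehicle points in atria than in SAN. The largest differences were those of NCS1 (-1.19 and 1.65) and NPPC (-0.88 and 2.57).

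Genes that responded in SAN alone were mostly genes that fell (107, against 17 that rose). With quantile normalization 82 fell and 53 rose. NEFM (chromosome 22, 1008134 to 1012686), the medium neurofilament subunit, had SAN values of 5.94, 5.22, 5.70 and 4.87 with vehicle and 2.28, 2.35, 2.62 and 2.80 with CN03. In atria NEFM was at 0.02, 0.96, 1.23 and -0.01 with vehicle and 0.92, 0.73, 0.94 and 1.16 with CN03. The SAN groups were separate and the atrial groups overlapped. NEFM fell by 2.92 in SAN (SE 0.262, adjusted p = 8.99e-10) against 0.39 in atria (95% confidence interval -0.15 to 0.93), a difference of -3.31 (adjusted p = 1.09e-06). CALB1, the calcium-buffering protein calbindin, had SAN values of 2.23, 1.81, 1.33 and 1.94 with vehicle and -1.76, -1.59, -1.39 and -0.47 with CN03, while its atrial values ranged from -2.96 to -1.87 with vehicle and -2.91 to -1.69 with CN03. CALB1 thus came near its atrial level in CN03-treated SAN, with changes of -3.13 in SAN and 0.06 in atria (95% confidence interval -0.73 to 0.85) and a difference of -3.19 (adjusted p = 0.000136). Both were SAN-enriched in fresh tissue, NEFM by 3.40 and CALB1 by 4.94 (adjusted p = 5.61e-10 and 5.66e-10).

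UGT1A1 and SYT8 followed in this direction. UGT1A1, a glucuronosyltransferase whose locus encodes several isoforms with shared exons, ranged from 2.26 to 4.18 with vehicle and -0.50 to 1.09 with CN03 in SAN, against -0.66 to 0.06 and -0.63 to 0.29 in atria. SYT8, a synaptotagmin of vesicle exocytosis, ranged from -0.18 to 1.64 with vehicle and -2.66 to -1.19 with CN03 in SAN, and its atrial ranges were -2.66 to -2.23 and -2.73 to -1.72. The differences were -3.36 for UGT1A1 and -2.79 for SYT8 (adjusted p = 6.6e-05 and 0.000425), and with CN03 the SAN libraries of both genes overlapped the atrial ones. Atrial values of both, and of CALB1, were low with vehicle already, which left little room for a fall there. The part of this in the differences was not tested. Against fresh tissue the differences of UGT1A1 and SYT8 were -1.59 and -0.64 (adjusted p = 0.0328 and 0.417).

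The 17 genes that rose in SAN alone were led by VIL1, KCNJ12, UPP2 and LTBP2. KCNJ12 (chromosome 14, 4450711 to 4485631) encodes the inward rectifier potassium channel Kir2.2, a current that holds the resting potential of working myocytes. KCNJ12 values in SAN were 3.26, 2.98, 3.01 and 2.37 with vehicle and 4.96, 4.92, 4.74 and 4.72 with CN03. In atria they were 6.09, 5.28, 5.10 and 5.51 with vehicle and 5.78, 5.40, 5.47 and 5.29 with CN03. SAN with CN03 thus lay closer to atria, whose groups overlapped. KCNJ12 rose by 1.93 in SAN (SE 0.178, adjusted p = 1.31e-09) against -0.01 in atria (95% confidence interval -0.38 to 0.36), a difference of 1.94 (adjusted p = 6.49e-06). VIL1, the actin-bundling protein villin, went from -0.53 to -0.19 with vehicle to 1.16 to 1.93 with CN03 in SAN, with a difference of 2.02 (adjusted p = 0.000362). UPP2, a uridine phosphorylase, went from 0.39 to 1.11 to 1.81 to 2.05, with a difference of 1.52 (adjusted p = 6.91e-05). LTBP2, a microfibril protein of the latent TGF-beta binding protein family, went from 3.36 to 4.25 to 4.63 to 5.27, with a difference of 1.39 (adjusted p = 0.00684). In atria these 3 changed by between -0.30 and -0.21, within the spread of their libraries.

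Genes that rose in atria alone included several known from neurons. SYP (chromosome 12, 13595280 to 13674915), the synaptic vesicle protein synaptophysin, had atrial values of 0.75, -0.20, -0.19 and -0.10 with vehicle and 3.92, 3.45, 3.78 and 3.47 with CN03. In SAN the values of SYP were 2.56, 2.39, 2.10 and 2.29 with vehicle and 2.51, 2.35, 2.44 and 2.59 with CN03. The atrial groups were far apart and the SAN groups overlapped. SYP rose by 3.59 in atria (SE 0.239, adjusted p = 3.68e-12) against 0.14 in SAN (95% confidence interval -0.36 to 0.63), a difference of -3.45 (adjusted p = 1.86e-07). Fresh SAN and atria did not differ in SYP by the test (-0.20, adjusted p = 0.545). Against fresh tissue, SYP rose with CN03 by 1.27 in SAN and 2.25 in atria (difference -0.98, adjusted p = 0.0377). CHRNA7, the alpha-7 nicotinic acetylcholine receptor subunit, had atrial values of -2.79, -0.90, -1.23 and -1.15 with vehicle and 1.51, 1.73, 2.07 and 1.23 with CN03, and ranged from 1.81 to 2.69 and 1.84 to 3.11 in SAN. In fresh tissue CHRNA7 did not pass the test between the tissues (0.25, adjusted p = 0.583), with fresh atrial values of 1.69, 1.49, 1.69 and 1.54. Its vehicle-treated atrial libraries were thus the low ones. The difference was -2.99 (SE 0.464, adjusted p = 5.24e-05). ANKRD34C, an ankyrin repeat protein, and IGSF9B, an adhesion protein of inhibitory synapses, rose by 2.97 and 2.74 in atria, with differences of -2.87 and -2.84 (adjusted p = 2.65e-06 and 0.000954). In SAN with CN03, IGSF9B was at 0.99, 3.87, 1.59 and 1.63. The value of 3.87 lay within the range of CN03-treated atria (3.39 to 4.64). Its 95% confidence interval in SAN (-0.97 to 0.76) only just met the one-tissue rule. Markers of neurons and neural crest as a list did not share this pattern, with 2 of 12 higher and 1 lower in SAN than in atria (25.0% called, beside 27.1% of all genes), and summed levels of 428 to 503 in vehicle-treated and 577 to 652 in CN03-treated atria, against 443 to 470 and 652 to 756 in SAN.

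Of the genes that fell in atria alone, VWC2 (chromosome 2, 80112200 to 80170326), a secreted BMP antagonist, had atrial values of 1.87, 2.09, 2.29 and 1.75 with vehicle and -1.37, -0.44, -1.13 and -1.46 with CN03. In SAN VWC2 was at 0.16, 0.61, -0.53 and -0.23 with vehicle and 0.18, 0.43, -1.54 and 0.13 with CN03. Only the atrial groups were separate. VWC2 fell by 3.10 in atria (SE 0.353, adjusted p = 3.79e-08) against -0.20 in SAN (95% confidence interval -0.93 to 0.53), a difference of 2.90 (adjusted p = 0.000161). With fresh tissue as the baseline, VWC2 changed by -1.39 in SAN and -1.39 in atria, without a difference (0.00, adjusted p = 0.998). ESRRB, an orphan nuclear receptor that drives oxidative metabolism genes, had atrial ranges of 2.00 to 3.04 with vehicle and -0.18 to 0.77 with CN03 and SAN ranges of 0.53 to 1.00 and -0.19 to 1.39, a difference of 2.38 (adjusted p = 9.31e-05). CDHR1, a protocadherin known from photoreceptors, and ATP6AP1L, related to a proton pump subunit, fell by 2.92 and 2.28 in atria, with differences of 2.80 and 2.30 (adjusted p = 0.00113 and 0.000746). PAPPA2 was chosen after its values were seen, because it had the largest positive difference of all genes tested. PAPPA2 encodes a protease that releases insulin-like growth factors from a binding protein, and its atrial values were 2.99, 2.98, 2.45 and 2.29 with vehicle and -4.10, -1.18, -3.10 and -3.09 with CN03. In SAN, PAPPA2 was at 0.65, 1.93, 1.64 and 0.63 with vehicle and 1.67, 2.05, 2.02 and 1.51 with CN03. It fell by 5.55 in atria (adjusted p = 6.75e-11) and the difference was 6.15 (SE 0.616, adjusted p = 2.45e-07), but its interval in SAN (-0.30 to 1.50) was too wide for the one-tissue rule.

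**Figure D4:**
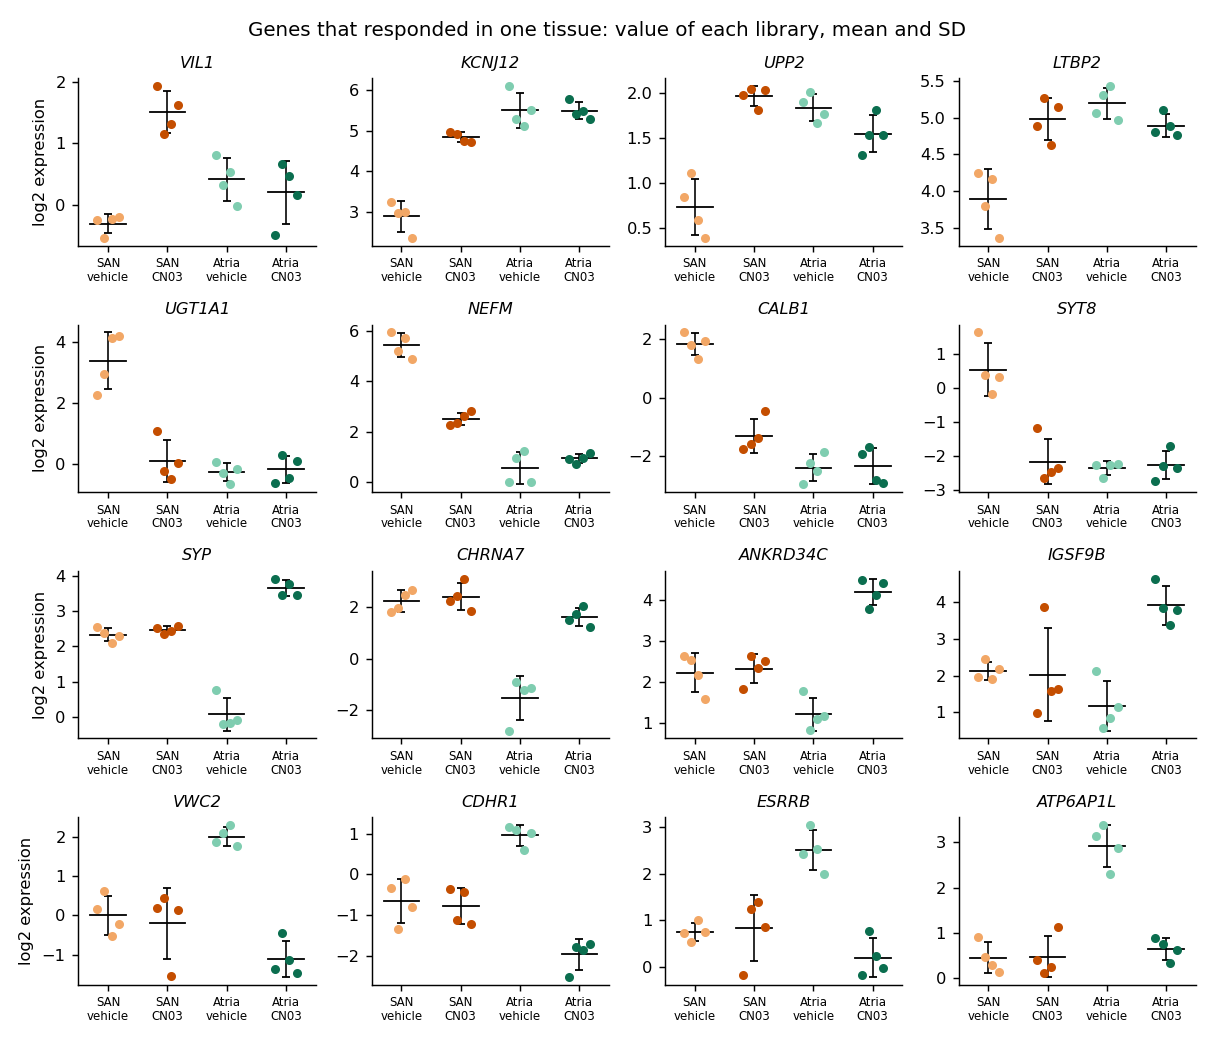
Log2 expression (y axis) in each library of SAN and atria with vehicle and with CN03 (x axis) for the 4 leading genes of each one-tissue kind, by row: up in SAN, down in SAN, up in atria, down in atria; points are libraries, the line is the mean and the bar the SD. The genes were chosen for libraries that CN03 separates in the responding tissue, and those of the other tissue overlap, as for KCNJ12 (1.93 in SAN and -0.01 in atria) and SYP (0.14 and 3.59).

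Where both tissues changed in the same direction, atria changed more in 1119 genes and SAN in 579. ABRA (chromosome 2, 130584434 to 130590907), an actin-binding protein that activates SRF, had the largest difference of these. ABRA values in SAN were 1.47, 2.40, 1.65 and 2.00 with vehicle and 7.92, 7.66, 7.57 and 7.19 with CN03. In atria they were -3.29, -3.76, -2.15 and -3.87 with vehicle and 8.55, 8.79, 8.29 and 7.95 with CN03. The CN03-treated groups ended close together, and the tissues differed most in the vehicle-treated libraries. ABRA rose by 5.71 in SAN and by 11.66 in atria, a difference of -5.96 (SE 0.406, adjusted p = 1.39e-09), and fresh SAN was 4.05 above fresh atria (adjusted p = 1.45e-10). TRNP1, a nuclear protein of neural progenitors, rose by 2.08 in SAN and 6.72 in atria, from vehicle values of -2.42, -5.24, -5.87 and -5.19 in atria, of which 1 was the lowest value of the table, and the difference was -4.64 (adjusted p = 0.000446). Larger falls in SAN were led by ANKRD9L, an ankyrin repeat gene, and BRINP1, a gene of neuronal differentiation. ANKRD9L fell by 5.85 in SAN and by 2.03 in atria, and BRINP1 by 4.58 and 1.06 (differences -3.82 and -3.52, adjusted p = 9.14e-05 and 1.07e-07).

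In a list of 5 transcription factors of the SAN, 3 responded lower in SAN than in atria and none higher (beside 15.4% lower and 11.7% higher over all genes). TBX3, a repressor of the working myocardial program, fell in SAN and rose in atria. Its SAN values were 6.35, 6.13, 6.18 and 6.35 with vehicle and 5.60, 5.62, 5.65 and 5.76 with CN03, and its atrial values were 4.39, 4.27, 4.27 and 4.52 with vehicle and 5.93, 5.70, 5.92 and 5.83 with CN03. The SAN and atrial groups did not overlap with vehicle, and with CN03 the atrial libraries reached between 5.70 and 5.93, next to 5.60 to 5.76 in SAN. TBX3 changed by -0.59 and 1.49 (adjusted p = 0.00114 and 4.78e-09), a difference of -2.08 (adjusted p = 2.72e-07). ISL1, a LIM-homeodomain factor of cardiac progenitors and SAN, changed by -0.77 in SAN and 1.32 in atria (adjusted p = 0.0137 and 0.000132), but its SAN groups overlapped, and without replicate 4 of SAN with vehicle the SAN change was -0.63 and missed the threshold (adjusted p = 0.0564). The difference for ISL1 was -2.09 (adjusted p = 0.000276). SHOX2 fell in SAN alone (-1.96 against -0.17 in atria, difference -1.80, adjusted p = 0.00114), where atrial values were low throughout (2.03 to 2.70 with vehicle). TBX18, a factor of the sinus venosus, fell by 1.79 in SAN and 1.80 in atria, and its difference of 0.02 (95% confidence interval -0.70 to 0.73) was not past the threshold. TBX2, a repressor related to TBX3, did not pass the test in SAN (0.19), in atria (0.35) or as a difference (-0.15, adjusted p = 0.66). HOXA2 fell in SAN alone (-1.76, difference -1.81, adjusted p = 0.00758), and its atrial values were low throughout (-1.22 to -0.13 with vehicle). It was among 3 HOX genes of 21 measured that responded lower in SAN, with none higher. This share of 14.3% was below the 27.1% of all genes, and 6 were lower with quantile normalization and 5 lower and 1 higher with a pseudocount of 1.

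Among pacemaker channels and calcium-cycling genes, 4 of 28 responded higher and 5 lower in SAN than in atria (32.1%, beside 27.1% of all genes), and the list's median difference of -0.04 changed sign with quantile normalization (0.04) and median centring (0.01). The potassium channel genes parted within the list. KCNQ1, the pore subunit of the slow delayed rectifier, had SAN values of 5.23, 5.29, 5.27 and 5.53 with vehicle and 4.30, 4.61, 4.67 and 4.41 with CN03, and atrial values of 5.02, 5.17, 4.92 and 5.31 with vehicle and 5.78, 5.33, 5.44 and 5.65 with CN03. Groups were separate in both tissues, and KCNQ1 fell by 0.83 in SAN and rose by 0.45 in atria (difference -1.28, adjusted p = 1.67e-06). KCNJ2, the inward rectifier Kir2.1, changed by -0.98 and 0.53 (difference -1.51, adjusted p = 4.44e-05), with an atrial change of 0.32 after quantile normalization (adjusted p = 0.0937). KCNJ5, a subunit of the acetylcholine-gated potassium channel, went from 6.40, 6.20, 6.47 and 7.02 to 5.76, 5.74, 5.69 and 5.43 in SAN and from 7.50, 7.25, 7.39 and 7.44 to 5.26, 4.50, 4.64 and 4.72 in atria. KCNJ5 thus fell in both tissues and by more in atria (-0.87 and -2.62, difference 1.75, adjusted p = 5.72e-06).

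Of 13 atrial working myocardium genes, 2 responded higher and 2 lower in SAN (30.8% called, near the 27.1% of all genes; 3 and 2 with the replicate block). NPPA, encoding atrial natriuretic peptide, rose by 5.53 in SAN and 5.22 in atria, and its difference of 0.31 (95% confidence interval -0.36 to 0.97) was not past the threshold as deposited but was with quantile normalization (0.97, adjusted p = 0.0339). BMP10 rose by 1.75 and 1.30 (difference 0.45, 95% confidence interval -0.48 to 1.38, not past the threshold). GJA1, the gap junction protein connexin 43, and MYL10, a myosin light chain, rose more in atria, with differences of -1.09 and -1.84 (adjusted p = 0.00203 and 0.000166). With fresh tissue as the baseline, these differences were -0.21 and -1.15 (adjusted p = 0.585 and 0.0107).

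Against vehicle, targets of MRTF-SRF and YAP-TEAD mostly rose in both tissues, and where the rise differed it was mostly larger in atria. Of 34 MRTF-SRF targets, 15 responded lower in SAN than in atria and 1 higher (47.1% called, beside 27.1% of all genes), and 13 of these rose in both tissues with the larger rise in atria. With quantile normalization, 11 of the 34 were lower and 1 higher. MYLK, myosin light chain kinase, rose from the range 7.33 to 7.97 with vehicle to 9.01 to 9.37 with CN03 in SAN. In atria MYLK rose from 4.59 to 5.01 to 8.63 to 8.78 (changes 1.56 and 3.84, difference -2.29, adjusted p = 3.75e-09). TNC, the matrix protein tenascin C, and TAGLN, the actin-binding protein transgelin, differed by -2.78 and -1.80 (adjusted p = 6.23e-05 and 0.00753), and TPM1, an actin-coating tropomyosin, by -1.37 (adjusted p = 4.34e-06). In all 4 the vehicle-treated atrial libraries were lower than or overlapped the SAN ones, and the CN03-treated libraries of the tissues lay close together. SMTN, the smooth muscle cytoskeletal protein smoothelin, was the exception of the list, falling in atria (-1.01) against 0.29 in SAN (difference 1.31, adjusted p = 2.34e-05). Of 20 YAP-TEAD targets, 8 responded lower in SAN and none higher (beside 15.4% lower and 11.7% higher over all genes). With quantile normalization, 6 of the 20 were lower and none higher. Among the 8 were CCN2, a matricellular protein (3.65 and 5.35, difference -1.69, adjusted p = 0.000368), and F3, tissue factor, which rose in atria alone (0.42 and 1.50, difference -1.08, adjusted p = 0.0119). Against fresh tissue the differences of CCN2 and F3 were 0.86 and 0.67 (adjusted p = 0.052 and 0.12). RHOA itself rose by 0.51 in SAN and 0.71 in atria with a difference of -0.20 (95% confidence interval -0.45 to 0.05) that was not past the threshold. ARHGAP29, a GTPase-activating protein, rose more in atria (difference -0.64, adjusted p = 0.000492), and PPP1R12B, a regulatory subunit of myosin phosphatase, fell more there (difference 0.98, adjusted p = 0.00113).

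Sarcomere genes had 13 of 45 members lower in SAN than in atria and 1 higher, a share of 31.1% near the 27.1% of all genes, and 11 lower and 3 higher with quantile normalization. The median response of the list was -0.22 in SAN and 0.25 in atria. NEB, the thin-filament protein nebulin, changed by -0.62 in SAN and 1.18 in atria (difference -1.80, adjusted p = 2.76e-05), and the SAN change was -0.43 after quantile normalization (adjusted p = 0.0518). Against fresh tissue, NEB rose by 0.65 in SAN and 0.69 in atria (difference -0.04, adjusted p = 0.925). MYOZ2, a Z-disc protein, fell in SAN alone (-1.28 against -0.21), TNNI2, fast skeletal troponin I, rose in atria alone (1.40 against -0.05), and CSRP3, a Z-disc mechanosensor, rose more in atria (differences -1.07, -1.45 and -1.76, adjusted p = 0.00161, 0.0013 and 3.19e-07). The single member with a higher response in SAN as deposited was MYOM2, an M-band protein (2.34 and 1.30, difference 1.04, adjusted p = 0.00553).

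Signalling feedback genes also differed. Of 26 FGF and ERK genes, 12 responded lower in SAN and 2 higher (53.8%, beside 27.1% of all genes), and 11 of them rose in both tissues with the larger rise in atria. SPRY2 and SPRY4, inhibitors induced by receptor tyrosine kinase signalling, and ETV4, an ERK-responsive transcription factor, had differences of -1.40, -1.62 and -1.59 (adjusted p = 4.27e-07, 0.000237 and 2.59e-07). With fresh tissue as the baseline, their differences were -0.66, -1.98 and 0.83 (adjusted p = 0.00218, 3.41e-05 and 0.00058). On that baseline, ETV4 rose more in SAN (1.57) than in atria (0.74). SPRY2 was at 5.33, 5.31, 5.38 and 5.58 with vehicle and 6.43, 6.07, 6.60 and 6.34 with CN03 in SAN, and at 4.04, 4.14, 4.22 and 4.01 and 6.41, 6.40, 6.76 and 6.30 in atria, so that the tissues overlapped with CN03 and not with vehicle. FGF13, an intracellular modulator of sodium channels, fell more in atria (-1.84 and -4.12, difference 2.28, adjusted p = 1.78e-06).

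Of 36 BMP and TGF-beta genes, 6 responded higher and 11 lower in SAN than in atria (47.2% called, beside 27.1% of all genes). ID1, a transcriptional target of BMP signalling that blocks basic helix-loop-helix factors, had SAN values of 6.48, 6.85, 6.28 and 6.15 with vehicle and 5.20, 4.74, 5.29 and 5.53 with CN03. Atrial values of ID1 were 3.84, 4.09, 4.47 and 4.58 with vehicle and 4.99, 4.95, 4.91 and 5.01 with CN03. Groups were separate in both tissues, in opposite directions. ID1 fell by 1.25 in SAN and rose by 0.72 in atria (adjusted p = 4.32e-07 and 0.000451), a difference of -1.97 (adjusted p = 2.28e-06). Genes that rose in atria alone were BMP6, a ligand, SMAD7, an inhibitor of TGF-beta receptors, and TGFBI, a TGF-beta-induced matrix protein. Their differences were -1.35, -1.51 and -1.69 (adjusted p = 0.00149, 4.82e-06 and 1.18e-05). FST, the antagonist follistatin, rose more in atria (3.41 and 5.99, difference -2.58, adjusted p = 0.000545). Among the 6 that responded higher in SAN, LTBP2 rose in SAN alone (difference 1.39, adjusted p = 0.00684). Of these 6, 1 rose in SAN and fell in atria, and 3 fell in both tissues, more in atria.

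In the Notch pathway, 2 of 20 genes were higher and 6 lower (beside 15.4% lower and 11.7% higher over all genes). The ligand genes went opposite ways, DLL4 falling in SAN and rising in atria where JAG1 did the reverse. DLL4 values were 4.61, 4.66, 4.52 and 4.66 with vehicle and 3.59, 3.96, 3.94 and 3.57 with CN03 in SAN, and 3.18, 2.93, 3.38 and 3.70 with vehicle and 4.41, 4.01, 4.34 and 3.98 with CN03 in atria, without overlap in either tissue. Its changes were -0.85 and 0.88 (adjusted p = 2.18e-05 and 1.21e-05), and the difference was -1.73 (adjusted p = 3.08e-06). HEY1, a transcriptional target of Notch, fell in atria alone (-1.09 against -0.05, difference 1.03, adjusted p = 0.00438).

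Of 42 WNT pathway genes, 4 were higher and 8 lower in SAN than in atria (5 and 7 with quantile normalization), and the share called, 28.6%, was near the 27.1% of all genes. RSPO2, a secreted enhancer of WNT signalling, FZD9, a WNT receptor, and NKD1, an inhibitor that WNT signalling induces, all fell in SAN alone, by 1.50, 1.44 and 1.05, with differences of -1.68, -1.32 and -1.05 (adjusted p = 0.000744, 8.33e-06 and 0.00287). All 3 were higher in fresh SAN, by 1.86, 1.47 and 1.92. FZD2, another receptor, rose in SAN and fell in atria (0.41 and -0.50, difference 0.91, adjusted p = 0.000217). Its difference against fresh tissue was 0.17 (adjusted p = 0.474). Of 66 axon guidance genes, 25 were lower and 2 higher (40.9% called, beside 27.1% of all genes; 19 and 4 with quantile normalization), and EFNA2, an ephrin ligand, rose in atria alone (1.60 against 0.00, difference -1.60, adjusted p = 8.47e-06).

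Glycolysis and hypoxia-responsive genes had 13 of 28 members lower in SAN than in atria and 2 higher (53.6%, beside 27.1% of all genes). LDHA, lactate dehydrogenase A, had SAN values of 10.47, 10.31, 10.12 and 10.36 with vehicle and 9.69, 10.11, 9.68 and 9.77 with CN03, and atrial values of 10.78, 10.14, 9.92 and 10.56 with vehicle and 11.63, 11.07, 10.96 and 11.35 with CN03. The fresh libraries of LDHA held 6.18 to 6.89 (SAN) and 7.37 to 7.98 (atria), so that all cultured libraries were above all fresh ones. The SAN and the atrial groups were each separate, and LDHA changed by -0.50 and 0.90 (adjusted p = 0.0163 and 0.000103), a difference of -1.40 (adjusted p = 0.000266). BNIP3L, a mitophagy receptor, averaged 8.08 ± 0.0832 (SD, n = 4) with vehicle and 7.33 ± 0.302 with CN03 in SAN, and 7.62 ± 0.157 and 8.44 ± 0.179 in atria, again without overlap (difference -1.56, adjusted p = 1.02e-05). EGLN3, an oxygen-sensing hydroxylase, and P4HA1, a collagen hydroxylase, were also opposite, with -0.60 and -0.48 in SAN and 0.75 and 0.72 in atria (differences -1.35 and -1.21, adjusted p = 2.91e-05 and 1.83e-05). NDRG1, a hypoxia-induced gene, rose in atria alone (1.48 against 0.18), VEGFA, the endothelial growth factor, rose more in atria (0.30 and 1.66), and ENO2, an enolase, fell in SAN alone (-1.44 against -0.01), with differences of -1.30, -1.36 and -1.43 (adjusted p = 5.76e-08, 1.29e-05 and 0.0148). ADM, the vasodilator adrenomedullin, went against the list and fell in atria alone (-1.12 against 0.17, difference 1.30, adjusted p = 8.37e-05). Of the respiratory chain, 4 of 82 genes were lower and 1 higher (6.1% called, 1 lower and 3 higher with median centring).

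Endothelial and endocardial markers had the highest share of called members of the 26 lists, with 13 of 18 lower in SAN than in atria and none higher (72.2%, beside 27.1%). With quantile normalization 13 were lower and 1 higher, and with median centring 12 and 1. The list's median response was -0.10 in SAN and 0.70 in atria. CDH5, the endothelial cadherin, had atrial values of 4.68, 5.53, 5.56 and 5.18 with vehicle and 7.49, 7.40, 7.31 and 6.69 with CN03, and SAN values of 6.33, 6.41, 6.65 and 6.48 with vehicle and 6.63, 6.77, 6.41 and 6.18 with CN03. The atrial groups were separate and the SAN groups overlapped. CDH5 rose by 1.99 in atria against 0.03 in SAN (difference -1.96, adjusted p = 2.19e-05). CLDN5 and ESAM, junction proteins of endothelium, likewise rose in atria alone (differences -2.68 and -1.36, adjusted p = 0.000217 and 0.000322). SOX18, an endothelial transcription factor, was opposite, with SAN values of 4.65, 4.96, 4.64 and 4.69 and 4.12, 3.92, 3.84 and 4.22 and atrial values of 2.16, 1.69, 2.37 and 2.83 and 3.17, 3.26, 3.10 and 3.19 with vehicle and CN03 (changes -0.71 and 0.92, difference -1.63, adjusted p = 9.74e-05). EGFL7, a factor secreted by endothelium, fell in SAN alone (difference -1.31, adjusted p = 1.7e-07), and ERG, a transcription factor of endothelium, rose in both tissues, more in atria (difference -1.45, adjusted p = 0.00056). Summed in linear units, the 18 markers lay between 596 and 727 in vehicle-treated atria and between 978 and 1225 in CN03-treated atria, against 976 to 1279 in fresh atria. In SAN they lay between 959 and 1069 with vehicle and between 884 and 1027 with CN03. None of the 18 had a library at the lowest value of the table. In bulk tissue, fewer cells of a type and less RNA per cell cannot be told apart, and the part of these markers in the other differences was not tested.

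Markers of other cell types were counted in the same way. Of 15 macrophage and leukocyte markers, 5 were lower in SAN than in atria and none higher (33.3% called, beside 27.1% of all genes; 8 lower with a pseudocount of 1). With CN03, 14 of them fell in SAN and 13 in atria, beside 37.8% and 36.8% of all genes. C1QB, a complement component of macrophages, fell by 6.44 in SAN and 4.78 in atria (difference -1.66, adjusted p = 0.00919), and CYBB, the phagocyte oxidase, fell in SAN alone (-2.28 against -0.31, difference -1.97, adjusted p = 0.000249). The summed level of the macrophage and leukocyte markers was 306 to 358 with vehicle and 71.5 to 93.0 with CN03 in SAN, and 130 to 216 with vehicle and 71.9 to 83.1 with CN03 in atria. It was 134 to 165 in fresh SAN and 63.5 to 93.4 in fresh atria. CN03-treated atria thus lay within the fresh atrial range, and vehicle-treated atria above it. Cardiomyocyte markers were lower for 2 of 9 (22.2% called), fibroblast markers for 2 of 12 (16.7%), epicardial markers for 2 of 12 with 1 higher (25.0%), and red cell markers for 1 of 8 (12.5%). These shares were all below the 27.1% of all genes. ERBB3, a receptor of neural crest and Schwann cells, fell in atria alone (-1.69 against 0.02, difference 1.71, adjusted p = 0.00018).

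The remaining lists held fewer named changes. Cell cycle and replication genes had the highest share of members with a higher response in SAN, 8 of 39 against 3 lower, while the share called in either direction, 28.2%, was near the 27.1% of all genes. Over all genes, 11.7% were higher. CCNE1, cyclin E1, rose more in SAN (1.15 and 0.57) and MCM5, a replication helicase subunit, fell more in atria (-0.34 and -0.97), with differences of 0.58 and 0.64 (adjusted p = 0.0137 and 0.0178). Stress response genes were higher for 2 of 32 and lower for 11 (5 and 9 with quantile normalization). Their share called, 40.6%, was above the 27.1% of all genes. Matrix genes were higher for 1 of 46 and lower for 13, and their share called, 30.4%, was near it. Chemokines and inflammatory genes were higher for 2 of 25 and lower for 3. Ribosomal protein genes were higher for 3 of 81 and lower for 2 (6.17% called). The chemokine and ribosomal shares were both below the 27.1% of all genes.

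**Figure D5:**
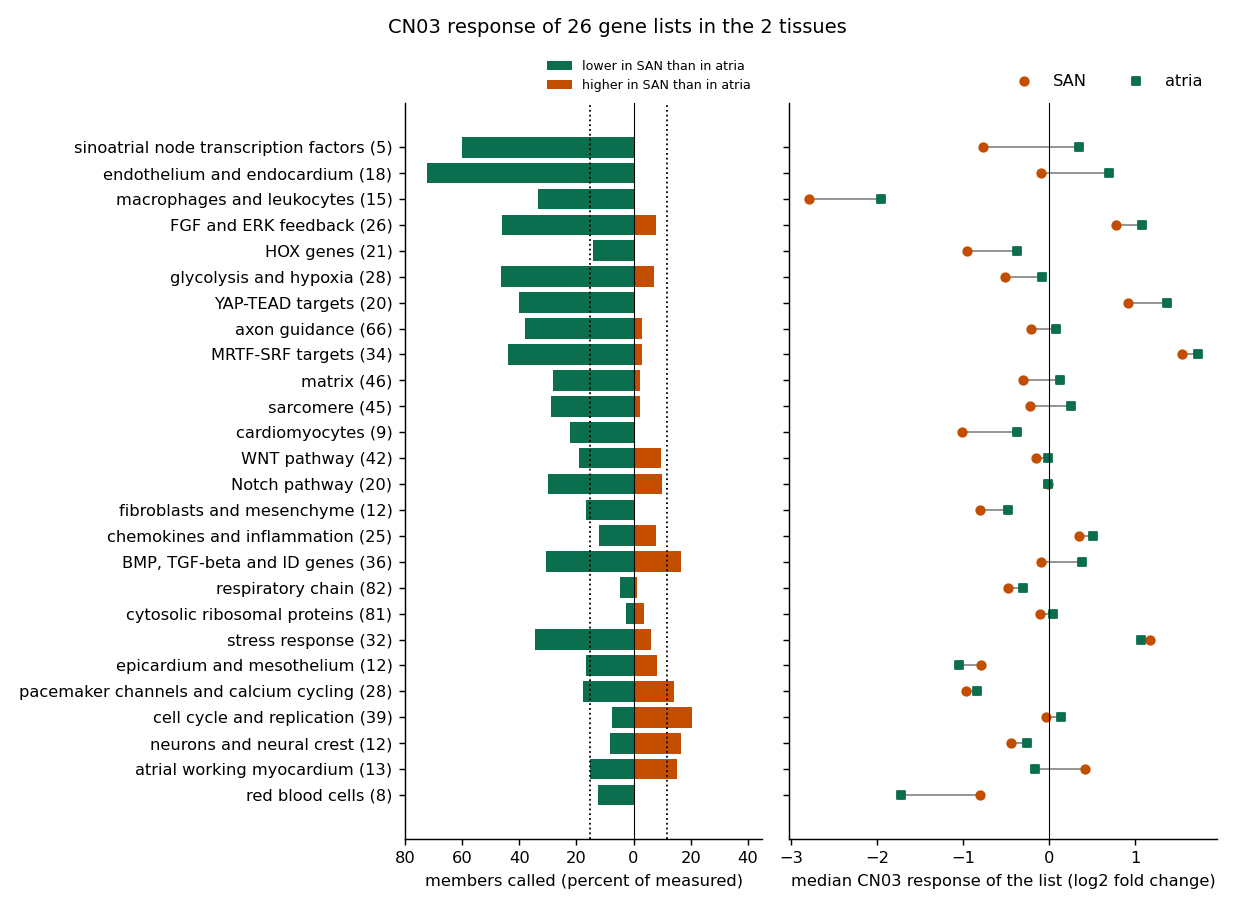
Left, share of the measured members of each of 26 gene lists (number measured in parentheses) whose CN03 response was lower (green) or higher (orange) in SAN than in atria (x axis, percent), with dotted lines at the shares over all genes (15.4% and 11.7%); right, median response of each list in SAN (circles) and atria (squares) (x axis, log2 fold change). Endothelial markers, SAN transcription factors, FGF and ERK genes and glycolysis and hypoxia genes extend farthest to the left.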

How the data were processed

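Total RNA, depleted of ribosomal RNA, was sequenced from 24 libraries, 4 in each of 6 groups. The authors deposited log2 expression values per gene symbol, which they had filtered and normalized between libraries; the submitters' processing notes name FastQC, kallisto, edgeR and limma and the GRCg7b build, while versions, filter and normalization are not given in the sources used here. The depth per library is therefore unknown. A value without a symbol was left out (6.58% to 17.9% of the linear sum). No column lacked a sample (0).

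Group means were fitted to all 24 libraries with limma 3.58.1 (R 4.3.3; 18 residual degrees of freedom, mean-variance trend, Benjamini-Hochberg adjustment over 12422 genes), and the fit was tested on simulated data. A called gene had an adjusted p under 0.05. The difference in response was an interaction contrast without a fold change limit, and errors are SE. Replicates were separate pools. Genes were named by rule: 6 per opposite direction by the smaller of both changes, 4 per one-tissue kind and 2 per larger tissue by the size of the difference, all with libraries that did not overlap where they responded, plus members of 26 gene lists, and RHOA, ARHGAP29 and PPP1R12B; PAPPA2 was added. Genes, lists and tests were chosen with earlier results of these data known. Coordinates came from the NCBI gene table of GRCg7b, in which 12231 of 12422 symbols were found. Alternatives were 16 libraries, quantile normalization, median centring, a pseudocount of 1, genes with a mean log2 above 0, no trend, a replicate block, limits on fold change (1 and 0.5) and each library left out. Promoter sequences were not used here, and some genes and a gene list are not reported here. Plots were made in Python 3.11.15 with matplotlib 3.10.9.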

Additional observations from a re-analysis of the deposited data

Results flagged for a closer look

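The response to CN03 differed between SAN and atria, by the test of the difference itself (limma, adjusted p under 0.05), for 91 of the 96 named genes. Genes were named in large part because they passed this test. Their share therefore cannot be set against the 27.1% of all genes. The log2 fold change in SAN minus that in atria is given for each in parentheses, 4 libraries a group. Of the named genes, those that fell in SAN and rose in atria were NCS1 (-2.84), ATP2C2 (-2.23), OCM3 (-2.58), NPPC (-3.46), ENPP2 (-2.46), ARHGAP20 (-1.98), ISL1 (-2.09), TBX3 (-2.08), KCNJ2 (-1.51), KCNQ1 (-1.28), NEB (-1.80), ID1 (-1.97), DLL4 (-1.73), LDHA (-1.40), EGLN3 (-1.35), BNIP3L (-1.56), P4HA1 (-1.21) and SOX18 (-1.63). Those that rose in SAN and fell in atria were ROS1 (2.47), PLPP4 (2.17), JAG1 (1.95), TVP23A (1.71), CAMKK1 (1.45), RBM15 (1.36) and FZD2 (0.91). In SAN alone, a rise was found for VIL1 (2.02), KCNJ12 (1.94), UPP2 (1.52) and LTBP2 (1.39). A fall in SAN alone was found for UGT1A1 (-3.36), NEFM (-3.31), CALB1 (-3.19), SYT8 (-2.79), SHOX2 (-1.80), MYOZ2 (-1.07), HOXA2 (-1.81), RSPO2 (-1.68), FZD9 (-1.32), NKD1 (-1.05), ENO2 (-1.43), EGFL7 (-1.31) and CYBB (-1.97). A rise in atria alone was found for SYP (-3.45), CHRNA7 (-2.99), ANKRD34C (-2.87), IGSF9B (-2.84), F3 (-1.08), TNNI2 (-1.45), BMP6 (-1.35), SMAD7 (-1.51), TGFBI (-1.69), EFNA2 (-1.60), NDRG1 (-1.30), CDH5 (-1.96), CLDN5 (-2.68) and ESAM (-1.36). A fall in atria alone was found for VWC2 (2.90), CDHR1 (2.80), ESRRB (2.38), ATP6AP1L (2.30), SMTN (1.31), HEY1 (1.03), ADM (1.30) and ERBB3 (1.71). Both tissues rose, SAN more, for MYOM2 (1.04) and CCNE1 (0.58). Both tissues rose, atria more, for ABRA (-5.96), TRNP1 (-4.64), GJA1 (-1.09), MYL10 (-1.84), ARHGAP29 (-0.64), TAGLN (-1.80), TNC (-2.78), MYLK (-2.29), TPM1 (-1.37), CCN2 (-1.69), CSRP3 (-1.76), FST (-2.58), SPRY2 (-1.40), SPRY4 (-1.62), ETV4 (-1.59), VEGFA (-1.36) and ERG (-1.45). Both tissues fell, SAN more, for ANKRD9L (-3.82), BRINP1 (-3.52) and C1QB (-1.66). Both tissues fell, atria more, for KCNJ5 (1.75), PPP1R12B (0.98), FGF13 (2.28) and MCM5 (0.64). Outside these kinds of response lay PAPPA2 (6.15).

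Single libraries far from the other 3 of their group, by the gap relative to the group's range, were found in 18 of 384 groups of named genes, and chance gives about 1 in 20. In SAN with vehicle these were JAG1 in replicate 4 (6.89, others 6.33 to 6.40), VIL1 in replicate 2 (-0.53, others -0.24 to -0.19) and SHOX2 in replicate 1 (8.09, others 8.31 to 8.35). In SAN with CN03 these were VWC2 in replicate 3 (-1.54, others 0.13 to 0.43), PPP1R12B in replicate 4 (6.07, others 6.47 to 6.52), TAGLN in replicate 2 (8.36, others 8.81 to 8.86), TPM1 in replicate 2 (10.71, others 10.94 to 10.99), SMAD7 in replicate 2 (5.75, others 6.08 to 6.12), FST in replicate 2 (6.29, others 7.10 to 7.19) and EGFL7 in replicate 1 (5.49, others 5.76 to 5.79). In atria with vehicle these were OCM3 in replicate 4 (1.82, others 2.59 to 2.75), SYT8 in replicate 2 (-2.66, others -2.27 to -2.23), SYP in replicate 1 (0.75, others -0.20 to -0.10), FST in replicate 1 (1.96, others 2.62 to 2.65) and NKD1 in replicate 1 (0.94, others 1.56 to 1.67). In atria with CN03 these were CDHR1 in replicate 1 (-2.52, others -1.85 to -1.72), SHOX2 in replicate 2 (1.62, others 2.31 to 2.43) and BNIP3L in replicate 1 (8.70, others 8.31 to 8.37).

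The table also holds a value without a gene symbol that took part in no test. Its share of a library's linear sum reached 17.9% in replicate 2 of atria with CN03, against at most 8.58% in the vehicle-treated libraries. Results without that library are within the ranges given in the next section.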

How the results depend on the processing

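Of the 96 named genes, the 91 whose difference was called as deposited kept its direction in the alternatives run. So did the responses within a tissue of the 25 opposite ones among them. Reversals were not counted for the differences that were not called as deposited. The other responses within a tissue were not followed. The followed results, uncalled differences included, had 3353 values in the alternatives. Of these values, 3344 kept their side of the threshold, 8 lost the call and 1 gained it, each given beside the gene in the report. Counts over all genes stayed within 1.5 times of those as deposited except that 53 genes rose in SAN alone with quantile normalization (17 as deposited, of which 12 were shared). Limits on fold change lowered the counts by construction: differences beyond 1 were found for 1031 genes (244 higher and 787 lower in SAN), and opposite genes with both changes beyond 0.5 numbered 67 (down in SAN, up in atria) and 14 (up in SAN, down in atria). The cause of the shift with quantile normalization was not tested. Among the lists, some counts of lower members moved by more than 1.5 times. Beside those given in the report, these were the respiratory chain (4 to 10 with the block), ribosomal proteins (2 to 6 with the block) and chemokines (3 to 7 with the pseudocount). Smaller moves included that of the matrix genes (13 to 18 with the block).

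With each of the 16 cultured libraries left out in turn, the difference was called for 3032 to 3290 genes (1303 to 1439 higher and 1729 to 1882 lower in SAN), and the response for 8531 to 8854 genes in SAN and 8626 to 9053 in atria. Opposite genes numbered 144 to 161 (down in SAN, up in atria) and 96 to 114 (up in SAN, down in atria). In SAN alone, 15 to 22 genes rose and 94 to 112 fell, and in atria alone 121 to 144 rose and 50 to 60 fell. Both tissues rose for 199 to 258 genes with the larger rise in SAN and for 558 to 646 with the larger rise in atria, and fell for 243 to 320 and 410 to 487.

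Groups share replicate numbers 1 to 4, but the numbers did not meet the criterion for pairing over all groups, a correlation above 0.1 in every pair. It was met between the atrial groups (0.246 to 0.275). Between the SAN groups it was met for replicates 1 to 3 (0.273 to 0.350) and not for replicate 4 (-0.0906). Deviations from the group means of same-numbered libraries correlated with r between -0.137 and 0.353 (mean 0.166 over 24 pairs of libraries, 16 above 0.1). Of the 4 numbers, 12 of 16 libraries correlated best with their own. When the replicate number was fitted as a block, the difference was called for 3983 genes (1724 higher, 2259 lower in SAN), 178 and 139 genes were opposite, and 17, 114, 128 and 55 responded in one tissue (SAN up, SAN down, atria up, atria down). The block called 9175 genes in SAN and 9291 in atria, and 345, 781, 412 and 571 genes changed unequally in the same direction (both up, larger in SAN or atria; both down, larger in SAN or atria). The number of reads per library is unknown, so the depth of low values limits their precision to an extent that could not be measured here.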

Other observations

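With freshly isolated tissue in place of vehicle as the baseline, the CN03-treated libraries differed in their change between SAN and atria for 2969 genes (23.9% of 12422, limma, adjusted p under 0.05). These values share the CN03-treated libraries with the comparison against vehicle and also hold the effect of culture, so they are given side by side only. NPPC changed by -1.18 in SAN and 3.49 in atria against fresh tissue, beside -0.88 and 2.57 against vehicle, and NCS1 by -0.43 and 1.67, beside -1.19 and 1.65. JAG1 changed by 0.82 and -0.43 against fresh tissue, beside 1.13 and -0.82 against vehicle. For CHRNA7 the fresh and CN03-treated atria were nearly level (0.03, 95% confidence interval -0.64 to 0.71), beside 3.15 against vehicle, and for CDH5 the values were -0.18 and 1.99. With CN03, ANKRD34C and IGSF9B were above fresh tissue in SAN (1.84 and 1.33) as well as in atria (3.06 and 3.73). LDHA was 3.25 and 3.58 above fresh SAN and atria in the CN03-treated libraries, beside changes of -0.50 and 0.90 against vehicle.

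KCNJ12 was low in fresh tissue of both kinds (1.90 to 2.15 in SAN and 2.44 to 2.80 in atria), and its vehicle-treated libraries were at 2.37 to 3.26 in SAN and 5.10 to 6.09 in atria. With CN03, KCNJ12 was 2.81 above fresh tissue in SAN and 2.83 above it in atria (difference -0.02, limma, adjusted p = 0.971). CDHR1 was at -4.98 to -2.87 and -3.54 to -2.35 in fresh SAN and atria, below its vehicle-treated libraries in both tissues. PAPPA2 was at 1.24 to 2.16 in fresh SAN and -1.83 to -0.59 in fresh atria, where the vehicle-treated atrial libraries reached 2.29 to 2.99.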
